A study of Mus musculus with 60 samples.

Results

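Nascent transcription was profiled in CTCF-AID mouse embryonic stem cells (mESCs) after 6 h of CTCF depletion. The members were chosen by line and treatment: all GFP-AID-Ctcf mESC libraries, which came to 8 of the 60 libraries in the series. There were 4 control libraries and 4 libraries from cells kept in 500 µM indole-3-acetic acid (IAA, auxin) for 6 h, and each arm held 2 libraries made without strand information (non-stranded) and 2 made with it (stranded). Both arms were of an E14 mESC line in which the endogenous Ctcf gene carries GFP and an auxin-inducible degron, grown in N2B27 medium with 2i and LIF, so the control cells carried the degron too. EU-seq, the assay used, sequences RNA that took up 5-ethynyl uridine (0.5 mM) during a 20 min pulse, and thus reads transcription under way rather than the stock of mature RNA. The protocol text filed with these libraries describes a triptolide experiment, whereas their titles and characteristics name IAA for 6 h, and the titles were followed. No mESC library without the degron and with IAA was analysed here, so effects of IAA itself and of CTCF loss cannot be told apart. The study's reporting statement calls the 2 libraries of each type and arm biological replicates. Whether stranded and non-stranded libraries with the same number came from 1 culture is not given in the sources used here, and p values measure the spread between these libraries.

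CTCF is a zinc-finger protein that binds a long DNA motif in a fixed orientation. It is best known for stopping cohesin, the ring complex that extrudes chromatin loops, at the borders of topological domains, and it also binds at or near the start sites of many genes. In a degron line auxin recruits a plant-derived F-box protein to the tagged protein, which is then broken down by the proteasome, so the RNA of the targeted gene is not expected to show the depletion.

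The libraries held 7745427 to 21898781 counts over gene bodies, of which 2.41 to 4.22% lay in the 10 genes with the most reads. Log counts of the libraries of 1 arm and type correlated at 0.989 and 0.991 for the non-stranded pairs and at 0.952 and 0.966 for the stranded pairs, and no pair differed by sampling noise alone. The stem cell markers had a summed level of 3846 to 5218 CPM (counts scaled to the library total after TMM) in the controls and 3706 to 4799 CPM after IAA, with none at 0. Summed levels of primitive endoderm markers (305 to 523 and 297 to 448 CPM), mesoderm markers (9.77 to 32.2 and 12.3 to 53.6 CPM) and fibroblast markers (2.83 to 9.71 and 3.55 to 7.49 CPM) overlapped between the arms, as did those of trophoblast markers (43.5 to 59.6 and 57.2 to 89.3 CPM) and neural markers (35.5 to 43.4 and 39.2 to 52.9 CPM), of which Fabp7 was at 0 throughout. Their part in the results was not tested. In bulk libraries, fewer cells of a type and less RNA per cell cannot be told apart.

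Ctcf itself was measured at 271, 261, 245 and 302 CPM in the controls (non-stranded 1 and 2, then stranded 1 and 2, the order kept below) and at 263, 258, 258 and 312 CPM after IAA. The 2 arms overlapped, with a log2 fold change (IAA over control) of 0.05 ± 0.092 (SE, n = 4 against 4; edgeR adjusted p = 0.955), and since the degron acts on the protein, this RNA does not test the labels. Rad21, the cohesin subunit depleted in other lines of the series, had 293 to 318 CPM in the controls and 273 to 305 CPM after IAA (log2 fold change -0.06 ± 0.0575, adjusted p = 0.479). Of 15 tested genes of CTCF and the cohesin machinery, which includes the loader subunit Nipbl, the release factor Wapl and the ring subunits Smc1a and Smc3, 0 were called by edgeR and 0 had an adjusted p under 0.05. Their log2 fold changes ran from -0.19 for Smc1a to 0.17 for Stag2.

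Few genes changed after IAA in CTCF-AID cells, and among well expressed genes more were called lower than higher. A transcript was called when its edgeR adjusted p was under 0.05 and it changed by at least 2-fold, after the median change of expressed genes had been subtracted. Of 15611 transcripts tested, 139 (0.890%) were called lower and 88 (0.564%) higher, and at the adjusted p alone 314 (2.01%) were lower and 245 (1.57%) higher. Among the 8965 expressed above 15 TPM over the gene body, 59 (0.658%) were called lower and 20 (0.223%) higher, and among the 6646 below it, 80 (1.20%) and 68 (1.02%). By fold change alone, 293 expressed transcripts (3.27%) were at least 1.3-fold lower and 506 (5.64%) at least 1.3-fold higher, at 1.5-fold there were 146 (1.63%) and 200 (2.23%), and at 2-fold the order turned, with 62 (0.692%) lower and 44 (0.491%) higher. A fit with the library pairs as a block, which these numbers allow, called 191 lower (1.22%) and 320 higher (2.05%), and DESeq2 called 165 (1.06%) and 147 (0.942%), so the count of increases depended on how the spread was modelled more than that of decreases.

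In the 139 called decreases, the IAA libraries lay below every control in 136 (754, or 4.83%, of all tested transcripts did so), all 4 pairs of the same type and number were lower in 138 (20.3% of all tested), and the median log2 fold change was -1.59. In the 88 called increases, 78 lay above every control (567, or 3.63%, of all tested), all 4 pairs were higher in all 88 (22.9% of all tested), and the median was 1.396. The call was made on these same values, so these counts describe the called genes and add no support. The decreases were genes of middling level, with a median of 21.3 CPM in the controls, while the increases started from a median of 3.92 CPM, against 29.1 CPM over all tested transcripts. Called decreases spanned a median of 18941 bp and increases 30997 bp, against 24008 bp over all. Protein-coding transcripts made up 128 of the decreases and 75 of the increases, and lincRNAs 10 and 11. The mean count passed the filter of 20 in the controls alone for 24 of the decreases and in the IAA libraries alone for 19 of the increases, and such genes could pass only by differing.

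Both library types gave the same direction in every called transcript that could be tested in them. The calls were made on these same libraries, so this agreement follows largely from the selection. Over expressed transcripts, whatever their change, log2 fold changes in the 2 library types correlated at 0.81 (Pearson) and 0.671 (Spearman). Fitted on the non-stranded libraries alone, all 138 of the called decreases that could be tested were lower and 129 were called, and all 88 increases were higher and 84 called. On the stranded libraries alone, all 137 testable decreases were lower, 127 of them at least 2-fold, and all 83 testable increases were higher, 68 of them at least 2-fold, but none passed the adjusted threshold in that fit of 2 against 2. Across all tested transcripts, edgeR found 0 whose change differed between library types, with 130 at an unadjusted p under 0.05, while DESeq2 found 4 (Cc2d2a, Gabrp, Ggnbp1 and Map3k15) and edgeR with the pairs as a block found 12. For Ggnbp1 the fitted log2 fold change was -1.07 in the non-stranded and 0.85 in the stranded libraries. Genes that lie mostly within a gene of the other strand (398 tested) had a median log2 ratio of stranded over non-stranded control level of -0.60, against 0.01 for 13025 genes with no such overlap, so levels of overlapping genes are not comparable between library types.

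**Figure D1:**
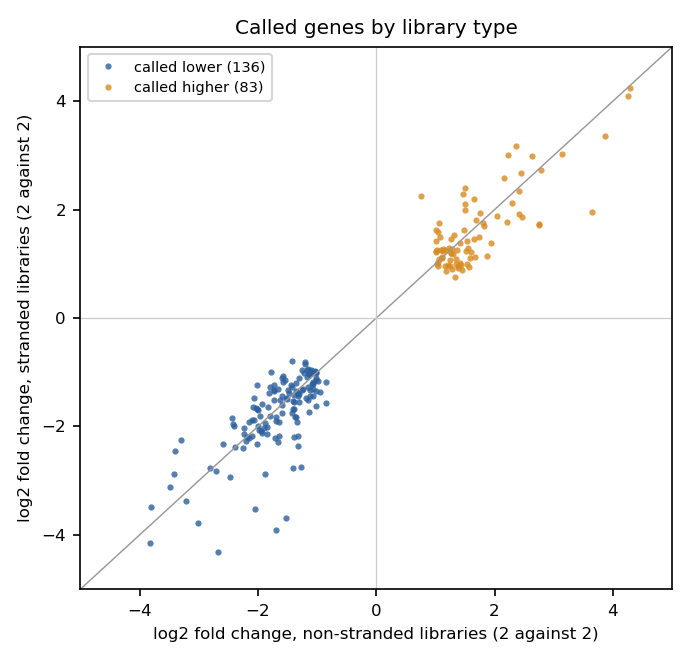
Centred log2 fold changes (IAA 6 h over control) of called transcripts fitted on the 2 against 2 non-stranded libraries (x axis) and on the 2 against 2 stranded libraries (y axis), for the 136 called decreases and 83 called increases tested in both. Every point lies in the lower left or upper right quadrant, and the grey diagonal marks equal change. The points were chosen by their change in these same libraries.

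The largest decreases among expressed genes were of Dennd6b, Snhg17 and a short RNA inside it, and they included enzymes and factors of basic cell functions. Dennd6b, a DENN-domain protein that activates Rab GTPases, had 28.3, 25.4, 29.9 and 29.5 CPM in the controls and 3.20, 2.37, 4.03 and 1.83 CPM after IAA. All 4 IAA libraries lay far below the controls, a log2 fold change of -3.31 ± 0.229 (SE, n = 4 against 4; adjusted p = 0.000203), or 9.94-fold. Snhg17, a host gene of small nucleolar RNAs, fell from 234, 262, 287 and 195 CPM to 24.4, 20.8, 30.8 and 33.4 CPM (log2 fold change -3.15 ± 0.171, adjusted p = 8.64e-05). Gm23925, annotated over 132 bp wholly within Snhg17 on the same strand, moved with it (-3.30) and cannot be separated from its host in these counts.

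Dph7, which acts in the synthesis of diphthamide on elongation factor 2, had 51.8, 48.1, 49.0 and 40.2 CPM in the controls and 9.28, 9.25, 9.69 and 7.36 CPM after IAA (-2.39 ± 0.118, adjusted p = 5.72e-05). Nle1, an assembly factor of the large ribosomal subunit, fell from 45.8, 47.7, 57.6 and 44.0 CPM to 9.81, 9.18, 10.2 and 8.80 CPM (-2.33 ± 0.117, adjusted p = 5.72e-05). In both genes the spread within an arm was small beside the gap between arms. Slc48a1, a heme transporter, fell by 2.19 on the log2 scale, Tex261 by 2.13, R3hcc1 by 2.24 and Dennd4b, a further DENN-domain protein, by 2.00, each with the 4 IAA libraries below all controls. Comtd1, a predicted methyltransferase, went from 14.8, 18.7, 11.5 and 10.6 CPM to 5.54, 5.74, 0.630 and 0.997 CPM (-2.40 ± 0.403, adjusted p = 0.0156). Its decrease was -1.53 in the non-stranded and -3.68 in the stranded libraries, and it lost the call without control non-stranded 2 (adjusted p = 0.0593), IAA non-stranded 1 (0.0531) or IAA non-stranded 2 (0.0504).

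Below 15 TPM the largest decreases were as deep. Mrpl23, a protein of the large subunit of the mitochondrial ribosome, fell from 7.86, 9.71, 9.15 and 11.5 CPM to 0.868, 0.306, 0.630 and 1.11 CPM (log2 fold change -3.63 ± 0.311, adjusted p = 0.000572), or 12.4-fold. Col27a1, a fibrillar collagen, fell from 17.3, 14.6, 22.5 and 19.7 CPM to 2.27, 1.53, 1.38 and 1.61 CPM (-3.38 ± 0.217, adjusted p = 0.000132). Prss41, a serine protease, rested on 92 counts in the 4 controls and 5 in the 4 IAA libraries (-3.98 ± 0.459, adjusted p = 0.00281). Neither arm of these genes overlapped the other. Mrpl23 and Prss41 passed the mean count filter of 20 in the controls alone, so they could be tested only by differing.

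**Figure D2:**
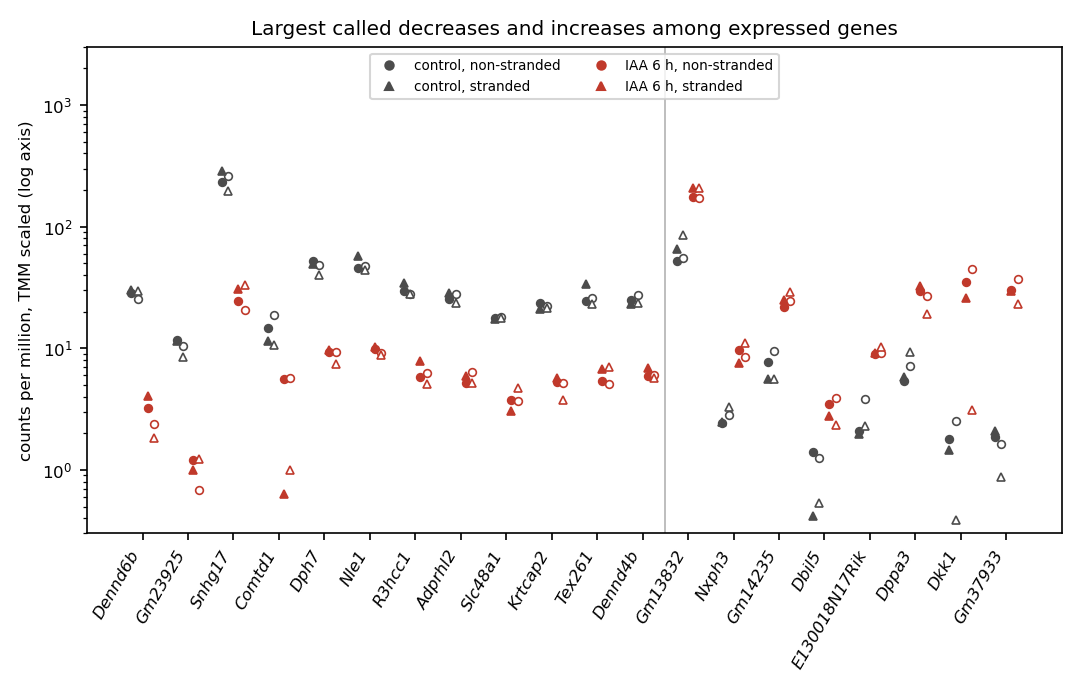
Level of the 12 largest called decreases (left of the grey line) and the 8 largest called increases (right of it) among expressed genes, in TMM-scaled CPM on a log axis, 1 point per library. Grey is control and red IAA 6 h, circles are non-stranded and triangles stranded libraries, filled marks replicate 1 and open marks replicate 2 of a type. Arms are apart in every gene shown, while Dkk1 and Comtd1 have a wide spread within an arm.

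Start sites of these genes were read for the CTCF core motif in a strict and a looser spelling, the looser with 1 fixed letter fewer, in RefSeq promoters (GRCm38.p6, 250 bases before to 50 after the start), both strands being searched. An entry within 500 bases of the counted start was found for 99 of the 139 decreases, 47 of the 88 increases and 10650 of all tested transcripts. The following promoters are those of the named called genes that hold the strict spelling, printed 5' to 3' on the gene's strand with the matching letters in capitals. On the gene's strand, Adprhl2 (chr4:126321654-126321953, minus strand) holds them 56 to 45 bases before its start, Krtcap2 (chr3:89246188-89246487, plus strand) 71 to 60 bases before and Gm26812 (chr8:121849936-121850235, plus strand) 31 to 20 bases before.
Adprhl2: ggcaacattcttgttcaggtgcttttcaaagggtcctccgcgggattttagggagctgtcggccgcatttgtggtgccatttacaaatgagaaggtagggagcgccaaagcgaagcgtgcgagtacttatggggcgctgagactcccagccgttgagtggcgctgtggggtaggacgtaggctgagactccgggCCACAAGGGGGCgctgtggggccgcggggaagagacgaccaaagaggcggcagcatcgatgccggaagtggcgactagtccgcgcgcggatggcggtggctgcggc
Krtcap2: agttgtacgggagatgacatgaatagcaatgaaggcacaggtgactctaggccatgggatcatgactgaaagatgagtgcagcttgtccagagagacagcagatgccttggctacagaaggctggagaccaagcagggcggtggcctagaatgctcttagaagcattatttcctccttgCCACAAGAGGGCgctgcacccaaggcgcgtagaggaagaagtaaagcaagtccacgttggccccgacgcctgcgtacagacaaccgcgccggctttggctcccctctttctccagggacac
Gm26812: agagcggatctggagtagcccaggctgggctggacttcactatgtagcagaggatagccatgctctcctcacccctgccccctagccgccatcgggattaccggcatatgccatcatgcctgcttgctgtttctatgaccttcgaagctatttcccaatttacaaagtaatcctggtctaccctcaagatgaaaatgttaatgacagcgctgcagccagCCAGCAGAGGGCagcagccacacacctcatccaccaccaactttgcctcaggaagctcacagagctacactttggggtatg
On the other strand, where the letters appear as their reverse complement, Dennd6b (chr15:89196425-89196724, minus strand) holds them 180 to 169 bases before its start and Peg12 (chr7:62464461-62464760, minus strand) 195 to 184 bases before. So does Lsm11 (chr11:45944886-45945185, minus strand), the called increase among the 6, 103 to 92 bases before.
Dennd6b: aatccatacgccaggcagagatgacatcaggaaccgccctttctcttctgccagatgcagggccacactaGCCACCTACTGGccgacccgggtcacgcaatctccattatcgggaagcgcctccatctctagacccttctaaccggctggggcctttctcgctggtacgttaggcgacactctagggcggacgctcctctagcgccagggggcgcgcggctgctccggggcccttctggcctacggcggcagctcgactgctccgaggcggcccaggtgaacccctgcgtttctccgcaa
Peg12: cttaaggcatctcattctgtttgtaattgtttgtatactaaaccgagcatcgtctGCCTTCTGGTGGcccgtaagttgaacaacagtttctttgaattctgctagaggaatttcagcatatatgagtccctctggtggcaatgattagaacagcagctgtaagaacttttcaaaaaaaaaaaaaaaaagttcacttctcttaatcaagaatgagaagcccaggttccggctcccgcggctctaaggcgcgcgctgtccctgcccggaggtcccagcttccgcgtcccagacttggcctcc
Lsm11: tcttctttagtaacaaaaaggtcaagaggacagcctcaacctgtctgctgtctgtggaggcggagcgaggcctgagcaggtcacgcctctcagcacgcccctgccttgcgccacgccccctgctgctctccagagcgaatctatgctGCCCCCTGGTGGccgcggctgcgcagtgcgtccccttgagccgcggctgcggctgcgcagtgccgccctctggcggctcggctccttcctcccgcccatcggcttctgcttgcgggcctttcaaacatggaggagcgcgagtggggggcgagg

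Adprhl2, which removes ADP-ribose from serine residues, fell from 25.2, 27.9, 28.6 and 23.6 CPM to 5.21, 6.42, 5.92 and 5.15 CPM (log2 fold change -2.19 ± 0.130, n = 4 against 4, adjusted p = 0.000101). Krtcap2, a subunit of the oligosaccharyltransferase that adds sugar chains to proteins, fell from 23.7, 22.5, 21.1 and 21.6 CPM to 5.27, 5.20, 5.67 and 3.76 CPM (-2.14 ± 0.145, adjusted p = 0.000175). The lincRNA Gm26812 and the imprinted gene Peg12 were low, at 1.41 to 2.05 CPM and 2.04 to 2.81 CPM in the controls, against 0.2002 to 0.688 CPM and 0.534 to 1.64 CPM after IAA (-2.02, adjusted p = 0.0273, and -1.37, adjusted p = 0.0368). Lsm11, a protein of the U7 particle that trims histone mRNAs, rose from 27.0, 27.7, 31.8 and 27.7 CPM to 57.1, 59.8, 72.8 and 65.8 CPM (1.19 ± 0.0818, adjusted p = 0.000203). Without 1 library, Gm26812 kept its call only when IAA non-stranded 2 or IAA stranded 2 was the one left out (adjusted p up to 0.119 otherwise), and Peg12 only when IAA stranded 1 was (adjusted p up to 0.152 otherwise).

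The strict letters were found on the gene's strand in 8 of the 99 matched promoters of decreases (8.08%, 95% Wilson interval 4.15 to 15.1%), in 1 of 47 of increases (2.13%) and in 189 of all 10650 (1.77%). On the other strand they were found in 2 (2.02%), 2 (4.26%) and 120 (1.13%). The looser spelling was found on the gene's strand in 35 promoters of decreases (35.4%, interval 26.6 to 45.2%), 2 of increases (4.26%) and 825 of all tested (7.75%), and on the other strand in 10 (10.1%), 4 (8.51%) and 623 (5.85%). The middle of the 9 stricter matches in those 8 promoters lay 25.5 to 142.5 bases before the start, with a median of 58.5. Among expressed transcripts grouped by fold change alone, the stricter letters on the gene's strand were in 3 of 46 that were at least 2-fold lower (6.52%), 7 of 62 that were 1.5- to 2-fold lower (11.3%), 12 of 101 that were 1.3- to 1.5-fold lower (11.9%) and 91 of 5908 that moved less (1.54%). On the other side they were in 6 of 202 (2.97%) at 1.3- to 1.5-fold higher, 1 of 96 (1.04%) at 1.5- to 2-fold and 0 of 24 above 2-fold. A match is a description of letters in this window and not a measure of binding, and the whole promoter table holds the stricter letters in 447 of 32851 entries (1.36%) on the gene's strand.

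The largest increase among expressed genes was of Gm37933, a lincRNA on chromosome 3. It had 1.85, 1.64, 2.08 and 0.877 CPM in the controls and 30.2, 36.8, 29.6 and 23.1 CPM after IAA, a log2 fold change of 4.29 ± 0.243 (n = 4 against 4, adjusted p = 9.11e-05), or 19.5-fold. It starts 55 bases from the start of Rps3a1, a gene of the small ribosomal subunit that is read on the opposite strand. Rps3a1 had 96.8 to 203 CPM in the controls and 91.7 to 179 CPM after IAA, and its log2 fold change was -0.11 ± 0.183 (95% interval -0.47 to 0.26, adjusted p = 0.777).

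Dkk1, a secreted inhibitor of Wnt signalling, had 1.78, 2.51, 1.46 and 0.390 CPM in the controls and 35.2, 44.7, 26.1 and 3.10 CPM after IAA. Each IAA library exceeded all controls, but the stranded 2 pair was far lower than the others in both arms. The log2 fold change was 4.21 ± 0.672 (adjusted p = 0.0137), and the call was lost without control non-stranded 1 (adjusted p = 0.0816), control non-stranded 2 (0.0697) or IAA non-stranded 2 (0.0587). Dppa3, a maternal factor that marks the naive state and opposes maintenance of DNA methylation, rose from 5.41, 7.13, 5.82 and 9.30 CPM to 29.4, 27.1, 32.2 and 18.99 CPM (1.98 ± 0.231, adjusted p = 0.00334). Nxph3, a ligand of neurexins, rose from 2.45, 2.82, 2.49 and 3.31 CPM to 9.74, 8.49, 7.55 and 10.96 CPM (1.75 ± 0.192, adjusted p = 0.00236).

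Gm13832, a long noncoding RNA, rose from 52.7, 54.7, 65.2 and 85.2 CPM to 177, 173, 209 and 208 CPM (1.61 ± 0.100, adjusted p = 0.000131). Other expressed increases overlapped further genes. Gm14235 (1.87) and E130018N17Rik (1.92) lie over each other on the same strand, and Dbil5 (1.87) lies wholly within Glod4 on the other strand, so the reads of these genes may be shared. Below 15 TPM, Cobll1, an actin-binding relative of cordon-bleu, rose from 2.82, 1.57, 2.60 and 3.02 CPM to 36.8, 26.1, 39.3 and 18.2 CPM (3.60 ± 0.314, adjusted p = 0.000697), or 12.1-fold, and Zcwpw2, a zinc-finger gene, from 2.52, 2.51, 3.01 and 6.87 CPM to 23.8, 19.4, 28.6 and 52.5 CPM (3.07 ± 0.288, adjusted p = 0.00101). Gnat1, a transducin subunit of rod cells, had 28 counts in the controls, 0 of them in the stranded libraries, and 178 after IAA (adjusted p = 0.0477), and its call held only without IAA stranded 1 or IAA stranded 2 when 1 library was left out (adjusted p up to 0.165 otherwise).

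Called genes were next to each other in 13 of 14751 adjacent pairs of tested genes, and 429 pairs held at least 1 called gene. Of the neighbours of called genes 5.88% were called themselves, against 1.503% of all genes placed. Both genes fell in 5 pairs, both rose in 6 and they moved oppositely in 2. In 7 of the 13 pairs the annotated genes overlap, so the same reads may have been counted in both genes, and in 6 they do not overlap. On chromosome 2, Cobll1 (3.60) and Slc38a11 (2.49) rose and Scn3a, a sodium channel gene next to Slc38a11, fell (-1.94). On chromosome 19, Ifit2 fell (-2.004) and Slc16a12 rose (1.66). The neighbours Car13 and Car2, carbonic anhydrases, fell by 1.47 and 1.53 on the log2 scale. Nle1 shares its 3' end with Fndc8 on the opposite strand (-2.11), and their reads may be shared in non-stranded libraries. Start sites within 1000 bases of a divergent start were found for 6 of the 139 decreases (4.32%), 7 of the 88 increases (7.95%) and 1652 of all tested transcripts (10.6%). The divergent partner was called in none of those 6 and 7. Over all 1652, the partner was called lower in 6 and higher in 7, so none among so few was near the share over all. Bysl fell by 1.13 while Med20, 90 bases away, had a log2 fold change of -0.18, and Entpd1 rose by 2.19 while Tctn3, 164 bases away, had -0.15.

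The same genes were then read in 3 other depletions of the series, none of which shares control libraries with CTCF-AID. These were RAD21-AID mESCs after 4 h of IAA (12 control and 12 treated libraries), mESCs with CTCF-YF-AA, a CTCF with a pair of substitutions that impair its hold on cohesin, after 4 h of dTAG13 (2 and 2), and CTCF-dN/dC mESCs, in which 1 Ctcf allele lacks the N-terminal and the other the C-terminal part, after 2 h of AGB1 and dTAG13 that remove both (2 and 2). Line, agent, time and library type differ between them and cannot be told apart from the protein removed. Titles name the CTCF-dN/dC libraries as stranded, and those of RAD21-AID and CTCF-YF-AA do not. After RAD21-AID depletion, 60 of the 139 decreases were lower (43.2%, against 44.3% of all tested), their median log2 fold change was 0.04, and 7 were called lower and 2 higher (0.487% and 0.333% of all tested). The difference between the changes after CTCF-AID and RAD21-AID depletion was itself called in 505 transcripts, of which 259 (1.66%) moved lower after CTCF-AID depletion and 246 (1.576%) higher, and it was called lower in 88.5% of the 139 decreases. These 139 were chosen by their fall in the same CTCF-AID libraries, so that share follows largely from the selection. The count of 505 rose to 769 without control stranded 1 and to 988 without IAA stranded 2. Of the 88 increases, 72 passed the count filter in the RAD21-AID libraries, 57 of these were higher (79.2%, against 55.7% of all tested) with a median of 0.37. Of the 88, 6 were called higher and 3 lower after RAD21-AID depletion. The difference was called higher in 54 of them, which again were chosen in the same CTCF-AID libraries.

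After CTCF-YF-AA depletion, 121 of the 126 decreases that passed the filter were lower (96.0%, against 47.8% of all tested), with a median log2 fold change of -1.10, 79 were at least 2-fold lower (62.7%, against 0.992%), and 47 were called lower (0.436% of all tested). After removal of both truncated forms, 109 of 112 were lower (97.3%, against 49.4%), with a median of -0.97, 52 at least 2-fold (46.4%, against 0.641%), and 39 called lower (0.327% of all tested). The increases had smaller medians. After CTCF-YF-AA depletion 69 of 75 were higher (92.0%, against 52.2%) with a median of 0.48 and 4 called higher (0.0320% of all tested), and after removal of both truncated forms 55 of 76 were higher (72.4%, against 50.6%) with a median of 0.22 and 3 called higher (0.0512% of all tested). The difference from CTCF-AID depletion was called by edgeR in 0 transcripts for either line, with 853 and 1178 at an unadjusted p under 0.05, and by DESeq2 in 14 and 45. With 2 libraries per arm, these counts do not show that the changes were alike. Without 1 CTCF-AID library the counts by edgeR were 0 to 3 and 0 to 36, the highest without IAA stranded 2 in both.

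**Figure D3:**
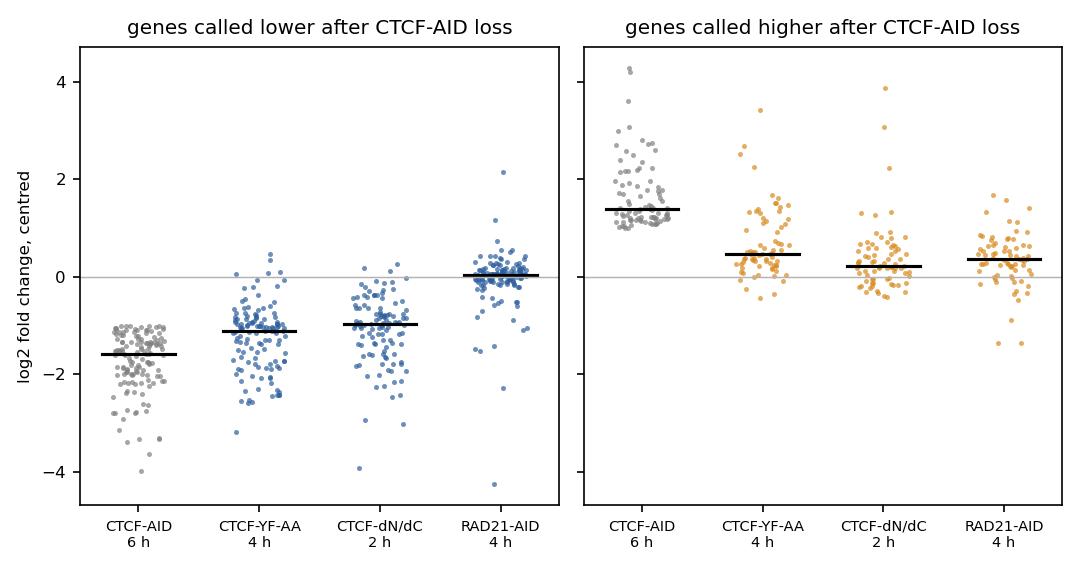
Centred log2 fold changes (treated over control) of the transcripts called lower (left) and higher (right) after CTCF-AID loss, in CTCF-AID (grey), CTCF-YF-AA, CTCF-dN/dC and RAD21-AID mESCs, 1 point per transcript that passed the count filter there, with the median as a black bar. The medians of the decreases are -1.59, -1.10, -0.97 and 0.04, and the grey points were chosen by their own change.

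By gene, Snhg17 had 171 ± 3.93 and 29.3 ± 1.33 CPM (SD, n = 2 each) before and after CTCF-YF-AA depletion, 140 ± 4.10 and 18.5 ± 1.62 CPM (n = 2 each) for the truncated forms, and 200 ± 4.18 and 195 ± 7.18 CPM (n = 12 each) for RAD21-AID. Gm37933 rose from 2.18 ± 1.31 to 26.0 ± 0.275 CPM and from 1.26 ± 0.932 to 18.7 ± 2.41 CPM in the first 2 and had 1.36 ± 0.408 and 1.26 ± 0.321 CPM in the third. Both genes were thus called after CTCF-YF-AA depletion and after removal of both truncated forms, and had RAD21-AID log2 fold changes of -0.02 and -0.10. Col27a1 rose after RAD21-AID depletion, from 10.3 ± 1.45 to 22.7 ± 1.44 CPM (1.17, adjusted p = 3.77e-17), while it fell with CTCF-AID and CTCF-YF-AA (-2.43), and its value for the truncated forms was -0.72 (adjusted p = 0.874). Gm26812 likewise rose after RAD21-AID depletion (2.14, adjusted p = 2.00e-17).

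Other genes moved after CTCF-AID depletion with small values in the remaining CTCF lines. Cobll1 had 42.5 ± 0.0639 and 49.3 ± 0.642 CPM around CTCF-YF-AA depletion and 59.4 ± 1.08 and 64.8 ± 9.61 CPM for the truncated forms, so its level there was already that reached by CTCF-AID cells after IAA or above it. Dkk1 had log2 fold changes of 0.32 and 0.63 in those lines, neither past the threshold, and rose after RAD21-AID depletion (1.69, adjusted p = 2.23e-07). Dennd4b had -0.63 and -0.41, with differences from CTCF-AID that did not pass (adjusted p = 0.265 and 0.0586). Spry4, an inhibitor of receptor tyrosine kinase signalling, fell from 3.41, 3.76, 4.16 and 8.91 CPM to 0.0667, 0.612, 0.378 and 1.83 CPM (-2.79 ± 0.571, adjusted p = 0.0356), and after RAD21-AID depletion from 49.8 ± 3.32 to 2.57 ± 0.414 CPM (-4.25). Its call in CTCF-AID cells was held only without control stranded 1 or IAA stranded 2 when 1 library was left out, with adjusted p up to 0.124 otherwise.

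Genes of named groups were counted next, each against 0.890% called lower and 0.564% called higher over all tested, where the median log2 fold change was 0.02. With the pairs as a block, 1.22% of all tested were called lower and 2.05% higher. Of 18 promoter genes that the study names as activated by CTCF, a list chosen on these samples and so not independent evidence of direction, all 18 were below 0, 12 were called lower, 16 had an adjusted p under 0.05 and the median was -1.24. Ttc5, a tetratricopeptide protein, fell from 61.8, 57.6, 67.5 and 74.2 CPM to 19.2, 16.8, 20.3 and 19.3 CPM (-1.76 ± 0.0838, adjusted p = 5.59e-05). Tab1, an activator of the TAK1 kinase, fell by 1.80, the ESCRT-II protein Vps36 by 1.68, the poly(A)-binding protein Pabpc4 by 1.35 and the phosphatase Dusp12 by 1.95 on the log2 scale. Rbm45 (-1.03) and Rabggta (-1.01) stood just past the 2-fold limit, and each dropped under it when some libraries were left out: Rbm45 without control non-stranded 2 (-0.996) or control stranded 1 (-0.97), and Rabggta without control non-stranded 2 (-0.95), control stranded 1 (-0.97), IAA non-stranded 1 (-0.96) or IAA non-stranded 2 (-0.98) and with the pairs as a block (-0.9996). Just outside, Rbm17 had -0.87, Polr3a -0.82 and Psmd6 -0.62, with adjusted p under 0.05, and Polr2c had -0.78 (adjusted p = 0.0519). App, the amyloid precursor protein, had -1.398 (adjusted p = 0.228) and was called lower with the block.

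Of 5 promoter genes the study names as repressed, again chosen on these samples, 0 were below 0 and 2 were called higher, Lsm11 and Ocel1 (1.43, adjusted p = 0.0481), and Mrps16 (0.96) and Kctd6 (0.80) had adjusted p under 0.05 below 2-fold. Ocel1 is overlapped over 65.3% of its length by Nr2f6 on the other strand, its change was 0.76 in non-stranded and 2.24 in stranded libraries, and its call was lost on leaving out any 1 of the 8 libraries (adjusted p 0.0592 to 0.123). Of 4 genes named for antisense promoter reads, among them Rps3a1 and again chosen on these samples, 0 were called, with a median of -0.02. These values are counts over the gene bodies. The study names these genes for a rise in antisense reads upstream of the start, which were not counted as such here. Gm37933, the called increase that starts 55 bases from the start of Rps3a1, is read on the opposite strand. Of 8 tested genes the study names with enhancers, again chosen on these samples and not independent evidence of direction, 1 was called higher. This was Slco5a1, a transporter, which rose from 20.2, 19.4, 21.6 and 45.5 CPM to 56.5, 56.7, 63.7 and 98.6 CPM (1.42 ± 0.230, adjusted p = 0.0156). Its call was lost without any 1 of the 4 non-stranded libraries (adjusted p 0.0643 to 0.0816). The median of the 8 was -0.20 with 6 below 0, and Sik1 (-0.51, adjusted p = 0.0368) and Mirg (-0.44, adjusted p = 0.0396) had adjusted p under 0.05 below 2-fold. This list mixes directions, as the study names Slco5a1 as rising after CTCF depletion and Klf4 as reduced only after RAD21 depletion.

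Ribosome and proteasome genes gave few calls. Of 78 mitochondrial ribosomal proteins 2 were called lower, Mrpl23 and Mrps2 (56.2, 59.0, 57.1 and 41.8 CPM against 14.5, 16.9, 13.2 and 11.1 CPM, log2 fold change -1.92), and the median was 0.02. Of 40 ribosome biogenesis factors 32 were below 0 and 2 were called lower, Nle1 and Bysl, which matures the small subunit, with a median of -0.09. Of 83 cytosolic ribosomal proteins, 47 proteasome subunits and 28 RNA polymerase subunits 0 were called, with medians of 0.06, 0.06 and 0.04, and with the pairs as a block 1 proteasome gene, Psmb9, was called higher (1.16). Of 20 p53 targets and 16 immediate early genes 0 were called, with medians of 0.02 and 0.02.

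Pluripotency genes were mostly within a small range. Of 20 naive factors 14 were below 0, 1 was called lower and 1 higher: Utf1, a chromatin-associated factor of undifferentiated cells, fell from 6.97, 8.07, 5.41 and 6.96 CPM to 2.14, 1.45, 1.51 and 2.21 CPM (-1.85 ± 0.227, adjusted p = 0.00356), and Dppa3 rose. The core factors had -0.18 for Pou5f1 (adjusted p = 0.458), -0.27 for Sox2 (0.160) and 0.18 for Nanog (0.518). Of 13 formative and primed genes 1 was called lower, the transcription factor Foxd3 (-1.03 ± 0.128, adjusted p = 0.00353), which dropped under 2-fold without control non-stranded 2 (-0.95) or IAA non-stranded 1 (-0.98). Of 12 genes of ERK feedback 1 was called lower, Spry4, and Dusp6, the ERK phosphatase, had -1.32 (adjusted p = 0.098). With the pairs as a block 2 of the 12 were called lower.

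Clustered protocadherins, whose promoter choice is known to use CTCF, were all on 1 side. Of the 21 tested, all were below 0, 11 had an adjusted p under 0.05, the median was -0.67, and 0 reached 2-fold. Pcdhga1 had 113 to 158 CPM in the controls and 55.1 to 82.3 CPM after IAA (-0.93, adjusted p = 0.01), and Pcdhgc5 28.0 to 42.9 CPM and 28.1 to 35.9 CPM (-0.15, adjusted p = 0.573). Their gene bodies lie over each other on the same strand and share reads, so the 21 are not separate measurements. Pcdhga1 passed 2-fold without control stranded 1 (-1.01) or IAA stranded 2 (-1.04).

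Hox genes, imprinted genes and genes of the two-cell-like state, a state that a small share of mESCs enters, gave more calls with the block than without it, and over all tested the block called 2.05% higher and 1.22% lower. Of 14 tested Hox genes 0 were called and 3 were called higher with the pairs as a block, and the median was 0.40. Of 31 imprinted genes 1 was called lower and 1 higher: Peg12, and Cdkn1c, the cell cycle inhibitor p57 (0.520 to 0.816 CPM against 1.38 to 2.77 CPM, 1.73, adjusted p = 0.0258), which kept its call only without IAA stranded 2 when 1 library was left out (adjusted p up to 0.108 otherwise). Peg10 had 8.45, 8.07, 7.80 and 2.48 CPM against 2.74, 1.61, 2.64 and 0.609 CPM (-1.82, adjusted p = 0.0977, blocked 3.17e-05). Of 11 tested two-cell-like genes 0 were called, with 6 called higher with the block, a median of 1.15 and all 11 above 0. Usp17lc, a member of a multicopy family whose reads cannot be placed with certainty, had 3.93, 1.41, 2.49 and 0.0487 CPM against 10.0, 4.44, 10.95 and 0.0554 CPM (1.82, adjusted p = 0.498, blocked 0.000169).

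Of 6 tested targets of the aryl hydrocarbon receptor 0 were called, and 1 with the block, which called 2.05% of all tested higher. This gene, Cyp1a1, an oxidase of aromatic compounds, had 3.78, 3.68, 3.53 and 5.94 CPM against 8.14, 9.33, 7.68 and 26.7 CPM (1.579 ± 0.381, adjusted p = 0.0732, blocked 9.59e-05). In RAD21-AID cells it had a log2 fold change of 0.87 (adjusted p = 9.87e-10), and in the remaining CTCF lines 0.42 and -0.96. Agent, line, time and library type cannot be told apart in these values, and the cause was not tested. Among the cell type markers 0 genes were called, and with the block 2 primitive endoderm markers, Dab2 and Pdgfra, were called higher. Median log2 fold changes were 0.79 for the 6 tested primitive endoderm, 0.76 for 4 trophoblast and 0.60 for 4 mesoderm markers. They were 0.12 for 3 neural, 0.06 for 2 fibroblast and -0.16 for 8 stem cell markers, against 0.02 over all tested. Of the 4 trophoblast markers 1 was higher with an adjusted p under 0.05. In 2 of these 4 the IAA libraries lay above every control (3.63% of all tested) and in 1 below (4.83%).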

How the data were processed

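Per the labels and the study's methods, the authors trimmed reads with Cutadapt, aligned them to mm10 with BWA, filtered on mapping quality with SAMtools 1.4, took out rRNA and tRNA reads with bedtools, and used HTSeq to count what remained over gene bodies, with a representative transcript for each gene (GENCODE M25). The deposited values are these raw counts per transcript, not normalized, with replicates apart (27665 transcripts). Whether the counting used strand is not given in the sources used here. Some symbols are counted for more than 1 transcript. Transcripts were named by a GENCODE annotation that matched 27296 with and 159 without their version, and 210 were left unnamed.

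Transcripts with a mean count above 20 in either arm were tested in R 4.3.3 with edgeR 4.0.16 (TMM, quasi-likelihood F test, two-sided, library type as covariate) and p values were adjusted by Benjamini-Hochberg over all tested. A median log2 fold change of -0.0291 over expressed transcripts (mean above 15 TPM over the gene body) was subtracted. Library totals set the precision of each value, and intervals on shares are 95% Wilson intervals that cover counting error only. Differences between depletions were tested in 1 model over both sets of libraries. DESeq2 1.42.0, other scalings and filters, leaving out libraries and a block for pairs were alternatives. Settings with 1 stranded pair, with 1 library type and the block, or with the block for the difference between library types were chosen after seeing the data. Of the fits, only the main edgeR fit was tested on simulated counts, which were drawn independently for each library.

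Named were the 12 largest called decreases and 8 largest called increases among expressed genes that moved the same way in all 4 pairs, the 3 largest of each below the expression threshold, Ctcf and Rad21, called list members and each list's most changed member, and further list members, neighbours and genes that differed between library types, which were chosen after their values were seen. Same-numbered libraries of a type deviated together in the 2 arms (correlations of 0.164, 0.157, 0.731 and 0.674 for non-stranded 1 and 2 and stranded 1 and 2), so the numbers were taken to pair the samples. This comes from the data, as the labels give only the number. Values of some list members are not reported here. Members and gene lists were chosen with earlier results of these data known. Columns counted over a limited first stretch of genes, and columns of other lines, were not used for the calls.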

Additional observations from a re-analysis of the deposited data

Results flagged for a closer look

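Among the 4 libraries of an arm, 16 of 176 tests found a library far from the other 3, where chance flags about 1 in 20. In the controls the library apart had 8.91 CPM for Spry4, 41.8 CPM for Mrps2, 2.48 CPM for Peg10, 803.0 CPM for Zfp42, 113.5 CPM for Tiparp, 45.5 CPM for Slco5a1, 5.94 CPM for Cyp1a1 and 6.87 CPM for Zcwpw2, all in stranded 2. It had 31.8 CPM for Lsm11 in stranded 1, 40.9 CPM for Zbtb39 in non-stranded 1 and 3.84 CPM for E130018N17Rik in non-stranded 2. After IAA it had 578.2 CPM for Zfp42, 312.4 CPM for Ctcf, 39.8 CPM for Lefty1, 2.77 CPM for Kdr and 26.7 CPM for Cyp1a1, all in stranded 2.

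The changes after CTCF-AID and RAD21-AID depletion differed in 259 transcripts that moved lower and 246 that moved higher after CTCF-AID depletion. Log2 differences between the changes were -4.44 for Prss41, -4.55 for Col27a1, -4.18 for Gm26812, 4.29 for Gnat1, 4.06 for Cobll1 and 4.41 for Gm37933.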

How the results depend on the processing

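Called decreases numbered 139 and called increases 88. Increases came to 147 by DESeq2, 320 with the replicate block and 42 without the library type covariate, and decreases to 165, 191 and 108. Non-stranded libraries alone gave 177 decreases and 232 increases, and with the replicate block 229 and 504. Stranded libraries alone gave 0 and 0 (unadjusted p under 0.05 and at least 2-fold: 162 and 103), and with the replicate block 199 and 190. Non-stranded libraries with stranded pair 2 gave 175 and 239, and with stranded pair 1 207 and 371. Leaving out 1 library gave 103 to 161 decreases and 32 to 188 increases, with increases at 32 without control non-stranded 1, 33 without control non-stranded 2, 39 without IAA non-stranded 1, 37 without IAA non-stranded 2, 58 without IAA stranded 1 and 188 without IAA stranded 2. The cause was not tested. Counts at 1.3-fold ran from 275 to 437 lower and 474 to 663 higher over these, and with no expression threshold were 1065 and 1919. Transcripts that differed between library types numbered 0 (DESeq2 4, replicate block 12, 0 to 0 over left-out libraries). Those that differed from RAD21-AID numbered 505, and 470 to 988 over left-out libraries, from CTCF-YF-AA 0 (DESeq2 14, no filter 2, 0 to 3) and from the truncated forms 0 (DESeq2 45, no filter 5, 0 to 36). Uncalled genes whose sign turned were Tubb3 (-0.16 in non-stranded libraries with or without the block, -0.021 without centring, -0.037 and -0.065 with stranded pair 2 or 1, and -0.084 to 0.098 over left-out libraries), Polr3gl (-0.017 and -0.018 in non-stranded libraries without and with the block, -0.029 to 0.31 over left-out libraries) and, over left-out libraries, Rps3a1 (-0.24 to 0.032), Ctcf (-0.020 to 0.097), Arg2 (-0.54 to 1.03) and Lefty1 (-0.69 to 1.39). With the looser letters the shares were 35.4%, 10.1% and 41.4% (gene's, other, either strand) in decreases and 7.75%, 5.85% and 13.03% over all tested. Of the 45 named called genes, all 45 kept their call under DESeq2, without the filter and without centring, 44 with the block (not Rabggta) and 34 without the covariate. Low counts limit Prss41, Gnat1, Cdkn1c, Peg12 and Gm26812.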
